A study of Mus musculus with 24 samples.

Results

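The response of skeletal muscle to the STING antagonist SN-011 was set against the response of the stomach in Trex1-/- mice, across all genes. The members were the 12 muscle and stomach samples of the 24 in the series, taken by their tissue labels, and no measured value entered the choice. They form 4 groups of 3 samples, which are control muscle, SN-011 muscle, control stomach and SN-011 stomach. Every mouse in them, controls included, carried the Trex1-KO genotype, a loss of the gene in the whole body. The sample labels give SN-011 at 5 mg/kg, 3 times per week for 4 weeks, and describe the controls as mice without SN-011. The study's methods give another schedule, 10 mg/kg every day for 2 weeks injected intraperitoneally from the age of 1 month, and vehicle for the controls. Samples were grouped by tissue and treatment, which are the same in both sources. Poly(A)+ RNA was sequenced, and raw read counts for 54532 genes were analysed, of which 17945 passed the filter on low counts and were tested.

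TREX1 is an exonuclease that removes DNA from the cytosol. Without it, self DNA activates the sensor cGAS, whose product cGAMP binds STING and drives type I interferon and interferon-stimulated genes. Skeletal muscle is built mostly of long multinucleated fibres rich in sarcomere proteins and mitochondria. The mouse stomach joins a glandular part, with acid- and mucus-secreting epithelium, to a forestomach lined by squamous epithelium, over layers of smooth muscle. The question was whether genes and pathways answer SN-011 in the same direction in these unlike tissues, or in opposite directions.

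Total counts were 14253416 to 18443329 per sample, so that 3 counts, taken as the smallest level that can be shown, corresponded to 0.163 to 0.21 CPM (read counts scaled to a fixed library total); this floor covers counting error only. Sarcomere genes of fast fibres summed to 295300 to 355900 CPM in muscle and gastric gland genes to 17740 to 136300 CPM in the stomach, as the tissue labels say. Trex1 had 0 counts in all 12 samples, but it shares its strand with the overlapping gene Atrip, and its counts therefore cannot show the genotype. Control replicate 1 of each tissue had 3060 to 7843 counts of Xist and 0 of the Y-linked Ddx3y, and the reverse was seen in the other 10 samples, with Ddx3y at 889 counts or more and Xist at 20 or fewer. A library that stood apart was SN-011 muscle replicate 2, with counts on 11546 genes, against 19798 to 23253 in each of the other 11 samples. Of the genes tested, 6864 had no count in that library, and 2955 of those averaged at least 1 CPM in the other SN-011 muscle samples. Several results that moved with it are given with and without it. In bulk tissue, fewer cells of a type and less RNA per cell cannot be told apart.

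The response to SN-011 differed between muscle and stomach for 8 genes at an adjusted p under 0.05 in edgeR's quasi-likelihood test of the interaction, that is, of the log2 fold change (SN-011 against control) in muscle minus that in stomach. The difference was positive for 2 of them, Egln3 and Cdkal1 (0.0111% of the genes tested), and negative for 6, Col7a1, Mafa, Mast4, Cuedc1, Rbfox2 and A930016O22Rik (0.0334%). The fitted fold changes had opposite signs in the 2 tissues for all 8 genes, and passed an unadjusted p under 0.05 in both tissues for 6, of which A930016O22Rik was under the counting floor in control stomach. Opposite signs alone are common, at 8795 of the 17945 genes. At an unadjusted interaction p under 0.05 there were 1040 genes with a positive difference (5.8%) and 1692 with a negative one (9.43%), and scaled by library size alone 516 and 2620. The median difference over all genes was -0.29, and those of the fold changes -0.25 in muscle and -0.03 in the stomach, beside which the medians of gene lists are to be read. Without muscle SN-011 replicate 2 the median difference over all genes was -0.11 and the muscle median -0.08. Within tissues, 636 genes were higher in muscle after SN-011 at an unadjusted p under 0.05 (3.54%) and 1511 lower (8.42%), against 1657 higher (9.23%) and 1843 lower (10.3%) in the stomach. After adjustment these numbers fell to 20 genes in muscle and 411 in the stomach. The 3 SN-011 samples were all above the 3 controls in muscle and all below them in the stomach for 184 genes (1.03%), and the reverse held for 514 genes (2.86%).

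These numbers of calls rest on single libraries. Without muscle SN-011 replicate 2 the interaction passed for 60 genes, without stomach control replicate 1 for 138, without stomach SN-011 replicate 2 for 76 and without stomach control replicate 3 for 3, whereas leaving out any other single sample gave 0 calls in edgeR's quasi-likelihood test, with 1916 to 2709 genes at an unadjusted p under 0.05. Over all 12 such fits, muscle had 0 to 38 calls and the stomach 1 to 2463. With same-numbered samples blocked, by treatment and number or by number alone, the interaction passed for 0 genes.

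**Figure D1:**
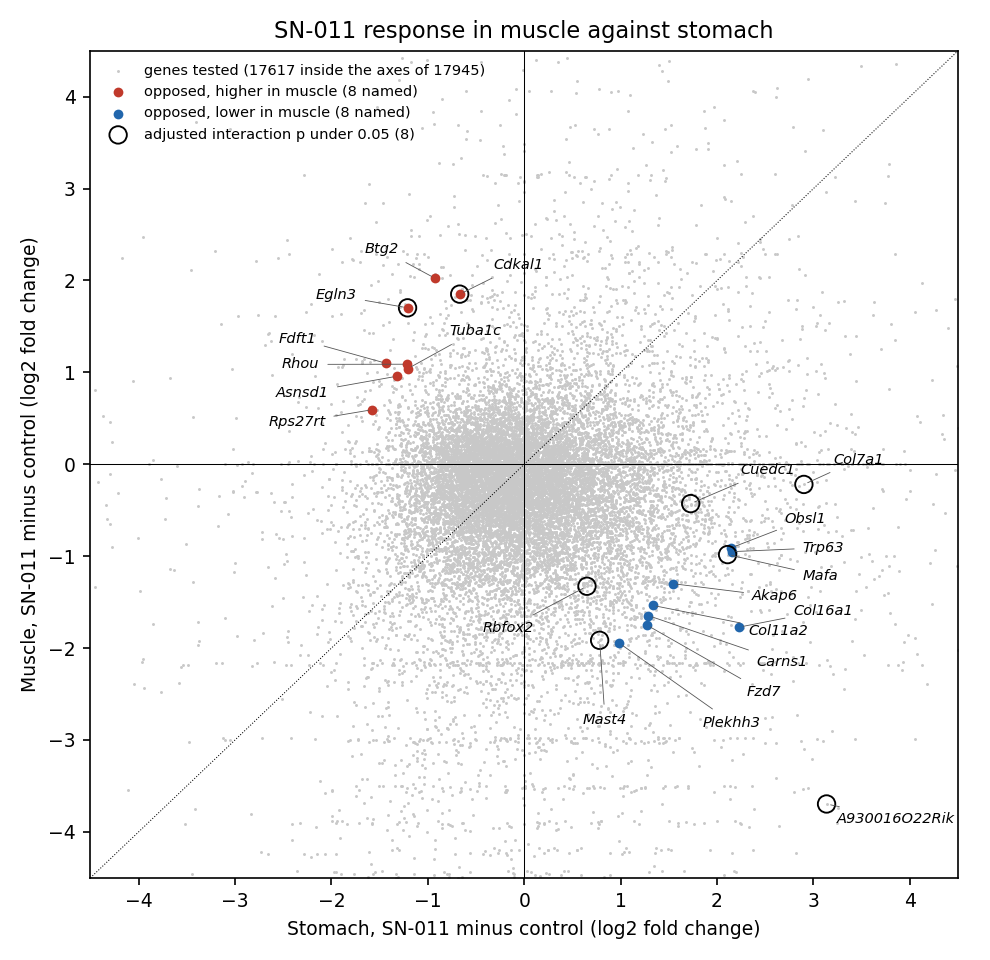
Log2 fold change after SN-011 in the stomach (horizontal axis) and in muscle (vertical axis), one grey point per gene tested, with 17617 of the 17945 genes inside the axes. Red and blue points are the 8 named genes opposed in each direction, black rings are the 8 genes with an adjusted interaction p under 0.05, and the dotted line marks equal change. All ringed genes lie in the upper left or lower right quadrant, where the fitted values have opposite signs. The muscle groups of Col7a1 overlapped, and the stomach value of A930016O22Rik rests on controls under the counting floor.

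Egln3, which encodes the prolyl hydroxylase PHD3 that marks hypoxia-inducible factor for degradation, rose in muscle and fell in the stomach. It lies on chromosome 12 of GRCm38 from 54178981 to 54203860, minus strand. In muscle it was at 61.8, 50.7 and 55.0 CPM in the controls and at 227, 129.8 and 189 CPM in the SN-011 samples. Stomach levels were at 88.3, 102.6 and 69.2 CPM in the controls and at 29.7, 38.3 and 44.5 CPM after SN-011. The groups did not overlap in either tissue, and they moved apart. The log2 fold change was 1.70 in muscle (SE 0.26, adjusted p = 0.0376) and -1.21 in the stomach (SE 0.25, adjusted p = 0.0357), a difference of 2.91 (SE 0.36, adjusted p = 0.0395). Hypoxia-inducible factor binds the letters ACGTG, which occur in the 250 bases before the start of transcription for 18.5% of the 27025 genes in RefSeq's promoter table (both strands searched, GRCm38.p6). The Egln3 window holds them once, 229 bases before the start, and is shown with the match in capitals because Egln3 had the lowest interaction p of all genes tested.
Egln3, chr12:54203875-54204124, minus strand: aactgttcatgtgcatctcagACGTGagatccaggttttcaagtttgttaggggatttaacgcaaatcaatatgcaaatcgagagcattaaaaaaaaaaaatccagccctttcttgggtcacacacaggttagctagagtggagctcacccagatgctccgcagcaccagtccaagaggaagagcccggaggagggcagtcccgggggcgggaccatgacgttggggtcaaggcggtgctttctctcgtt

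Cdkal1, a methylthiotransferase that modifies a lysine tRNA (chromosome 13, 29191746 to 29855674), was the other gene with a positive difference past the threshold. Its controls in muscle were at 19.5, 17.4 and 21.6 CPM and its SN-011 samples at 80.4, 62.2 and 68.5 CPM. In the stomach the controls were at 12.4, 9.16 and 7.99 CPM and the SN-011 samples at 5.84, 7.24 and 5.50 CPM. The rise in muscle was 1.85 on the log2 scale (SE 0.24, adjusted p = 0.0376). The stomach value was lower in every SN-011 sample, with a log2 fold change of -0.67 and an adjusted p of 0.152. The difference was 2.52 (SE 0.34, adjusted p = 0.0395).

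Mast4, a microtubule-associated kinase (chromosome 13, 102732486 to 103334497), and Rbfox2, a regulator of alternative splicing (chromosome 15, 77078990 to 77307004), went the other way. In muscle, Mast4 was at 75.0, 102.4 and 113 CPM in controls and at 27.5, 21.1 and 28.4 CPM after SN-011. The stomach had 14.01, 15.9 and 24.1 CPM and then at 38.1, 25.5 and 29.4 CPM. Muscle samples fell to roughly the level that the stomach reached after SN-011. The fall in muscle was -1.92 (SE 0.28, adjusted p = 0.0376), the stomach value 0.78 (adjusted p = 0.136) and the difference -2.70 (SE 0.38, adjusted p = 0.0406). Rbfox2 was at 69.4, 89.3 and 85.1 CPM in control muscle and 28.7, 29.2 and 39.2 CPM in SN-011 muscle. Its stomach levels were 27.6, 27.7 and 29.9 CPM in controls and 52.1, 40.1 and 41.6 CPM after SN-011. Again no group overlapped the other within a tissue. The difference was -1.98 (SE 0.29, adjusted p = 0.0461), made of a fall of -1.33 in muscle (adjusted p = 0.0376) and a stomach value of 0.65 (adjusted p = 0.111). Both genes overlap other annotated genes on each strand, so their counts may hold reads of those genes.

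For Col7a1, Mafa and Cuedc1 the change that passed was in the stomach. Col7a1, the collagen of anchoring fibrils under squamous epithelium (chromosome 9, 108953586 to 108984875), rose there from 4.51, 4.19 and 3.05 CPM to 40.1, 21.6 and 25.9 CPM. Its log2 fold change was 2.90 in the stomach (SE 0.31, adjusted p = 0.00683) and -0.22 in muscle (adjusted p = 0.766), where control and SN-011 samples overlapped at 60.6 to 109.4 CPM. The difference was -3.12 (adjusted p = 0.0395). Cuedc1, which encodes a protein with a ubiquitin-binding CUE domain, rose in the stomach from 24.3 ± 3.64 to 80.3 ± 20.3 CPM (SD, n = 3; log2 1.73, adjusted p = 0.0215), and had a log2 fold change of -0.43 in muscle and a difference of -2.15 (adjusted p = 0.0461). Mafa, a basic leucine zipper transcription factor known from pancreatic beta cells, was a low-level gene in the stomach, at 0.284 ± 0.0141 CPM in controls and 1.24 ± 0.234 CPM after SN-011 (log2 2.11, adjusted p = 0.0215). In muscle it was lower in every SN-011 sample, at 64.5 ± 20.5 against 127 ± 22.9 CPM (log2 -0.98, adjusted p = 0.17), and the difference was -3.09 (adjusted p = 0.0395). The eighth gene, A930016O22Rik, fell in muscle from 57.7, 55.5 and 94.1 CPM to 3.82, 3.65 and 8.47 CPM (log2 -3.70, adjusted p = 0.0376). Its control stomach samples had 0, 0 and 2 counts, under the floor, and its SN-011 stomach samples 8, 10 and 4. The fitted difference of -6.83 (adjusted p = 0.0406) therefore depends on the prior count and is no measure of size, and no direction is drawn for the stomach. It overlaps Ckm, the muscle creatine kinase gene, on the other strand.

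**Figure D2:**
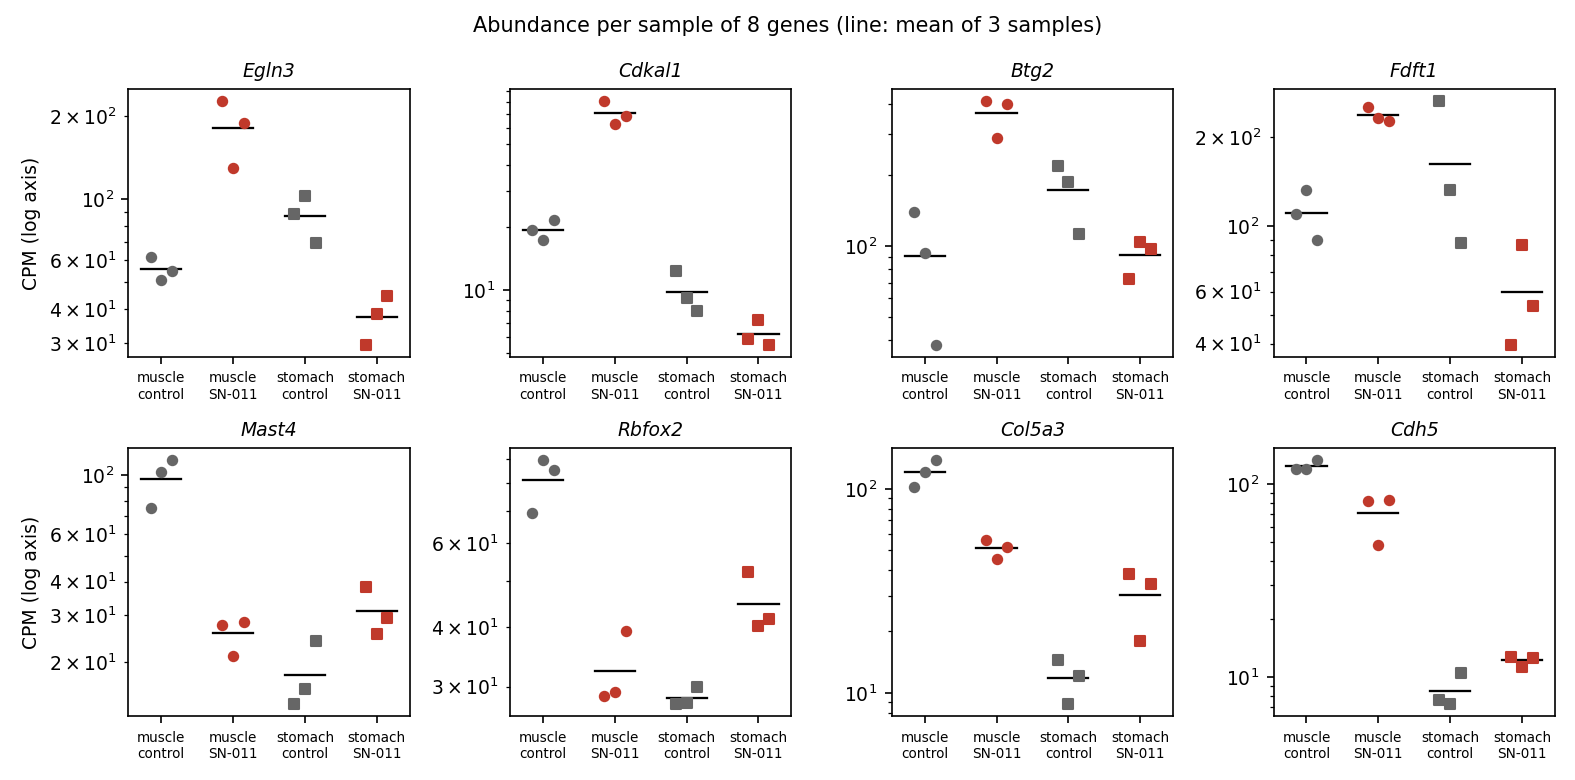
Abundance in CPM (log axis) of 8 genes in each of the 12 samples, with circles for muscle, squares for stomach, grey for control, red for SN-011 and a line at each mean of 3 samples. Egln3, Cdkal1, Btg2 and Fdft1 were higher in SN-011 muscle and lower in SN-011 stomach, and Mast4, Rbfox2, Col5a3 and Cdh5 the reverse, with no overlap between treatment groups in any panel.

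Since fewer than 20 genes passed the adjusted threshold, further opposed genes were taken at an unadjusted interaction p under 0.01, with an unadjusted p under 0.05 in each tissue, no overlap in either tissue at least 5 CPM in the higher group of each tissue, and the same sign at an unadjusted p under 0.05 without muscle SN-011 replicate 2. By this rule 22 protein-coding genes were higher in muscle and lower in the stomach, and 67 the reverse. The 8 of each direction with the largest differences are described. Their separation of groups and their signs were conditions of the choice and are not further evidence.

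Besides Egln3 and Cdkal1, the genes higher in muscle and lower in the stomach were Btg2, Fdft1, Rhou, Asnsd1, Tuba1c and Rps27rt. Btg2, an antiproliferative immediate early gene that p53 also induces, was at 140.2, 93.1 and 38.1 CPM in control muscle and at 413, 288 and 403 CPM in SN-011 muscle. Its stomach levels were 219.6, 187 and 112 CPM in controls and 72.3, 104 and 96.9 CPM after SN-011. The difference was 2.95 (SE 0.58, adjusted p = 0.0804). Fdft1, squalene synthase, the first step committed to sterols, was at 110.3, 132 and 89.9 CPM in control muscle and 254, 232 and 226 CPM in SN-011 muscle, against 265, 132 and 87.7 CPM and then 39.7, 86.5 and 53.8 CPM in the stomach. Its difference was 2.53 (SE 0.54, adjusted p = 0.0963). The stomach controls of both genes spread over a wide range, and their lowest control lay close to the highest SN-011 sample. Rhou, an atypical small GTPase, and Tuba1c, an alpha-tubulin, had differences between the tissues of 2.31 and 2.25 (adjusted p = 0.0804 and 0.0838). Asnsd1, named for a domain shared with asparagine synthetase, had a difference of 2.28 (adjusted p = 0.114), which was 1.81 without muscle SN-011 replicate 2, and overlaps Asdurf on its own strand. Its muscle log2 fold change went from 0.96 to 0.49 without that library, and no longer passed an unadjusted p under 0.05. Rps27rt, a retrotransposed copy of the ribosomal protein gene Rps27, fell in the stomach from 108 ± 17.8 to 36.1 ± 7.36 CPM (SD, n = 3; log2 -1.57, adjusted p = 0.0215). Its muscle value of 0.59 was 0.45 without muscle SN-011 replicate 2, where it no longer passed either. Reads shared with Rps27 could have been split or lost in counting, so its level is uncertain.

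The genes lower in muscle and higher in the stomach were Col16a1, Trp63, Obsl1, Fzd7, Plekhh3, Carns1, Col11a2 and Akap6. Trp63, the master transcription factor of squamous epithelium, rose in the stomach from 3.85, 3.63 and 3.64 CPM to 25.9, 8.41 and 15.1 CPM (log2 2.15, adjusted p = 0.0311). In muscle it was at 11.1, 9.26 and 13.5 CPM in controls and at 5.82, 5.56 and 6.07 CPM after SN-011 (log2 -0.95, adjusted p = 0.382). Its difference was -3.10 (adjusted p = 0.0804). Obsl1, a cytoskeletal adaptor related to obscurin, rose in the stomach from 2.16 ± 0.762 to 9.57 ± 3.88 CPM (adjusted p = 0.032), and Akap6, which anchors protein kinase A at the nuclear envelope of muscle cells, from 3.44 ± 1.203 to 10 ± 1.71 CPM (adjusted p = 0.0366). In muscle, where both are more abundant, Obsl1 was at 135 ± 10.2 CPM in controls and 71.9 ± 32.3 CPM after SN-011, and Akap6 at 56.7 ± 15.6 and 23.02 ± 4.17 CPM. Without muscle SN-011 replicate 2 the muscle log2 fold change of Obsl1 went from -0.91 to -0.58 and no longer passed an unadjusted p under 0.05. The differences of Obsl1 and Akap6 were -3.05 (adjusted p = 0.0804) and -2.84 (adjusted p = 0.0505). Fzd7, a Wnt receptor of muscle stem cells, was at 68.4, 119.9 and 74.8 CPM in control muscle and 32.7, 11.03 and 34.5 CPM after SN-011, with a difference of -3.02 (adjusted p = 0.0849). Carns1, the synthase of carnosine, and Plekhh3 had differences of -2.93 each (adjusted p = 0.0752 and 0.0796). The fibril-associated collagen Col16a1 and the fibrillar collagen Col11a2 had differences of -4.00 and -2.87 (adjusted p = 0.123 and 0.117). For Col16a1 the lowest muscle value, 0.182 CPM, came from SN-011 replicate 2, and without that library the difference was -3.44.

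In other genes 1 tissue alone passed an unadjusted p under 0.05, which does not show that the other did not respond. Here 4 genes of each direction were taken by the size of the difference among protein-coding genes with an unadjusted p under 0.05 in 1 tissue only, under the same limits on the interaction p, CPM and the left-out library, and without overlap in the changed tissue. Pdp2, a phosphatase that activates pyruvate dehydrogenase, rose in muscle from 13.2, 10.1 and 5.44 CPM to 56.9, 58.2 and 47.1 CPM (log2 2.50, adjusted p = 0.0376), and its log2 fold change in the stomach was -0.02. Slc39a14, the zinc importer ZIP14, rose in muscle from 34.4, 16.9 and 13.8 CPM to 173, 101.4 and 139 CPM (log2 2.67, adjusted p = 0.0376), against 0.24 in the stomach. Slc25a33, a mitochondrial pyrimidine nucleotide carrier, and Retreg1, the receptor that targets endoplasmic reticulum to autophagy, were higher in SN-011 muscle by 2.06 and 1.70 (adjusted p = 0.0873 and 0.158). The differences between tissues of these 4 genes were 2.52, 2.43, 2.83 and 2.52, with adjusted p of 0.0804 to 0.114. Tnc, tenascin C, a matrix glycoprotein of tendon and wound tissue, fell in muscle from 9.95, 12.8 and 9.48 CPM to 1.36, 0 and 0.879 CPM (log2 -3.82, adjusted p = 0.0492; difference -4.80, adjusted p = 0.0672). The 0 was in SN-011 replicate 2, and without it the muscle value was -3.26. Fam83d, a spindle protein, and Ret, a receptor tyrosine kinase, had differences of -4.05 and -3.58 (adjusted p = 0.151 and 0.19), with 0 counts in that same library, and of -3.47 and -2.99 without it. Saa3, an acute-phase serum amyloid A, rose in the stomach from 4.69, 2.37 and 3.09 CPM to 69.0, 7.68 and 57.2 CPM (log2 3.72, adjusted p = 0.0383), and was at 4.11 to 28.8 CPM in muscle, where the groups overlapped. The stomach groups of Retreg1, Tnc and Fam83d did not overlap either, with log2 fold changes of -0.82, 0.98 and 0.92, opposite to muscle. Those of Pdp2, Slc39a14, Slc25a33 and Ret overlapped.

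Collagens and other matrix genes were lower in SN-011 muscle and higher in SN-011 stomach. Of the 32 tested, 26 had a negative difference at an unadjusted p under 0.05 (9.43% of all genes) and 0 a positive one (5.8%). All 32 differences were negative. The median difference was -1.72, against -0.29 over all genes, made of a median log2 fold change of -0.90 in muscle and 0.81 in the stomach. At an unadjusted p under 0.05, 18 members were lower and 1 higher in SN-011 muscle, whereas 12 were higher and 0 lower in SN-011 stomach. Of all genes, 8.42% were lower and 3.54% higher in muscle, and 9.23% higher and 10.3% lower in the stomach. Col5a3, a fibrillar collagen chain, was at 102.3, 122 and 138 CPM in control muscle and 55.9, 45.3 and 51.9 CPM after SN-011. In the stomach it rose from 14.6, 8.83 and 12.1 CPM to 38.2, 18 and 34.2 CPM (log2 1.35, adjusted p = 0.0395). Its difference was -2.59 (SE 0.41, adjusted p = 0.0505), in opposite directions without overlap. Fmod, fibromodulin, a proteoglycan that binds collagen fibrils, was at 87.7, 121 and 109.7 CPM in control muscle and 21.5, 16.9 and 19.5 CPM after SN-011. Its stomach groups overlapped at 1.26 to 8.25 CPM, and the difference was -3.78 (adjusted p = 0.0804). Summed over the list, matrix genes were at 4470, 5865 and 5925 CPM in control muscle and 3167, 1956 and 3209 CPM in SN-011 muscle. In the stomach the sums were 3167, 2004 and 2966 CPM in controls and 6380, 2435 and 4660 CPM after SN-011, so that 1 SN-011 sample lay within the control range.

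Endothelial and smooth muscle genes moved with the matrix genes in the stomach. All 18 endothelial genes had a negative difference, 10 of them at an unadjusted p under 0.05 (9.43% of all genes). The median difference was -0.99 against -0.29 over all genes. The median log2 fold change was 0.84 in the stomach, where 12 were higher at an unadjusted p under 0.05 (9.23% of all genes). In muscle it was -0.35, where 2 were lower (8.42% of all genes) and 1 higher (3.54%). That muscle median lay near the -0.25 of all genes. Without muscle SN-011 replicate 2 it was -0.12, beside -0.08 for all genes. Tie1, a receptor tyrosine kinase of endothelium, rose in the stomach from 5.95, 4.37 and 8.73 CPM to 16.4, 13.6 and 13.9 CPM (log2 1.202, adjusted p = 0.0395). In muscle it was at 59.6, 63.0 and 66.7 CPM in controls and 46.4, 36.4 and 48.4 CPM after SN-011 (log2 -0.53, adjusted p = 0.436). Cdh5, the cadherin of endothelial junctions, was at 120.2, 120.6 and 133 CPM in control muscle and 81.9, 48.5 and 82.7 CPM after SN-011, with a difference of -1.34 (adjusted p = 0.1253), and Cldn5, a claudin of the same junctions, had a difference of -2.37 (adjusted p = 0.157). Of 22 smooth muscle genes, 8 were higher in SN-011 stomach (9.23% of all genes) and 0 lower (10.3%) at an unadjusted p under 0.05. Their median was 1.11 there and 0.00 in muscle. Lmod1, Synpo2 and Pgm5, all of the contractile or adhesion apparatus, were the 3 with the lowest interaction p, with differences of -2.40, -2.28 and -2.24 (adjusted p = 0.114, 0.114 and 0.149). Squamous epithelium genes had a median log2 fold change of 1.94 in the stomach. There 21 of 32 were higher (9.23% of all genes) and 1 lower (10.3%) at an unadjusted p under 0.05. Muscle held little of these transcripts, at 21.5 to 45.9 CPM summed over the list, so its median of 0.00 says little of a response. Ppl, periplakin of the cornified envelope, rose in the stomach from 11.1 ± 1.53 to 40.6 ± 14.8 CPM (adjusted p = 0.0344). The summed level of the squamous list did not separate the stomach groups, at 3625, 2230 and 794 CPM in controls and 2224, 1627 and 2007 CPM after SN-011.

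Nuclear genes for mitochondrial respiration, ribosomes and the proteasome had positive median differences. Their median fold changes were positive in muscle and negative in the stomach, beside -0.25 and -0.03 over all genes. Of 82 nuclear-encoded subunits of oxidative phosphorylation, 39 had a positive difference at an unadjusted p under 0.05 (5.8% of all genes) and 1 a negative one (9.43%). Their median difference was 1.09 against -0.29 over all genes. In the stomach they had a median log2 fold change of -0.80. At an unadjusted p under 0.05, 42 members were lower there (10.3% of all genes) against 1 higher (9.23%). In muscle the median was 0.31, with 1 member higher and 0 lower at that level, a share of members under the 3.54% of all genes. Ndufs4, a subunit of complex I, was at 202, 196 and 211 CPM in control muscle and 237, 238 and 253 CPM after SN-011. It fell in the stomach from 194, 124 and 119 CPM to 36.8, 81.1 and 51.6 CPM (log2 -1.37, adjusted p = 0.0366). The difference was 1.63 (SE 0.40, adjusted p = 0.123). Cox7a2, of cytochrome c oxidase, and Atp5j2, of ATP synthase, had differences of 1.47 and 1.54 (adjusted p = 0.15 and 0.153). The 13 genes encoded by the mitochondrial genome did not share this direction, with a median difference of -0.52 and a median log2 fold change of 0.84 in the stomach. Among them mt-Nd3 had a difference of 1.83 (adjusted p = 0.221), which was 1.07 without muscle SN-011 replicate 2, where its muscle log2 fold change went from 1.06 to 0.30.

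Of 36 proteasome subunits, 24 had a positive difference at an unadjusted p under 0.05 (5.8% of all genes) and 0 a negative one (9.43%). All 36 differences were positive, with a median of 0.80 against -0.29 over all genes. Their median log2 fold change was 0.32 in muscle and -0.58 in the stomach. Psmb1, a core particle subunit, was at 179.9, 153 and 154 CPM in control muscle and 231, 222 and 219 CPM after SN-011. Its stomach level fell from 194, 158 and 147 CPM to 79.6, 106 and 90.9 CPM (log2 -0.85, adjusted p = 0.0462), a difference of 1.31 (SE 0.28, adjusted p = 0.089). Psmd14, the deubiquitinase of the proteasome lid, fell in the stomach from 63.4 ± 11.8 to 22.1 ± 5.77 CPM (log2 -1.52, adjusted p = 0.0215) and was at 62.9 ± 2.73 and 65.9 ± 4.53 CPM in muscle. Psma5, another core subunit, fell in the stomach by 0.91 on the log2 scale (adjusted p = 0.0403). The summed level of the list was 6499, 6115 and 5746 CPM in control muscle and 8336, 7756 and 7778 CPM in SN-011 muscle. In the stomach it was 4457, 3326 and 2637 CPM in controls and 1986, 2715 and 2162 CPM after SN-011, with 1 pair of samples out of order.

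Ribosomal protein genes also had positive median differences. Among 84 cytosolic ones, 27 had a positive and 1 a negative difference at an unadjusted p under 0.05, with a median of 0.78, and among 77 mitochondrial ones 25 and 0, with a median of 0.62, against -0.29 over all genes. Of all genes, 5.8% were positive and 9.43% negative at that p. In muscle 0 cytosolic ones were higher and 1 lower at that level, and 1 mitochondrial one higher and 0 lower. In the stomach 22 cytosolic ones were lower and 1 higher, and 30 mitochondrial ones lower and 0 higher. Of all genes, 3.54% were higher and 8.42% lower in muscle, and 9.23% higher and 10.3% lower in the stomach. The summed cytosolic level overlapped between stomach groups, at 75620, 41620 and 32090 CPM in controls and 31370, 41640 and 30970 CPM after SN-011. In muscle that sum did not overlap, at 26860, 22660 and 24110 CPM in controls and 29700, 33680 and 30860 CPM after SN-011. Rps27 had a difference of 2.37 (adjusted p = 0.137) and Mrpl30 of 1.44 (adjusted p = 0.127). The medians in the stomach were -0.47 and -0.53, and those in muscle 0.35 and 0.16. The differences also varied with transcript length over all genes. Their median was -0.06 in the fifth with the shortest exonic length and -0.38 in the fifth with the longest, and the oxidative phosphorylation list has a median exonic length of 1560 bases against 6714 for the matrix list and 3824 for all genes tested. Each sample was then centred within 20 bins of exonic length, within its tissue, and the fit was run again. The median differences were then 0.70 for oxidative phosphorylation, 0.51 and 0.49 for the cytosolic and mitochondrial ribosomes and 0.86 for the proteasome. They were -1.50 for matrix genes and -0.85 for endothelial genes, beside -0.27 over all genes. Under 27 alternative settings, which include 2 other scalings and the loss of each sample, the median of oxidative phosphorylation genes stayed between 0.62 and 1.39, of proteasome genes between 0.46 and 0.99, of matrix genes between -2.12 and -1.36, and of endothelial genes between -1.34 and -0.72. The muscle median of matrix genes was negative and the stomach median positive in each of the 26 settings that gave one.

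**Figure D3:**
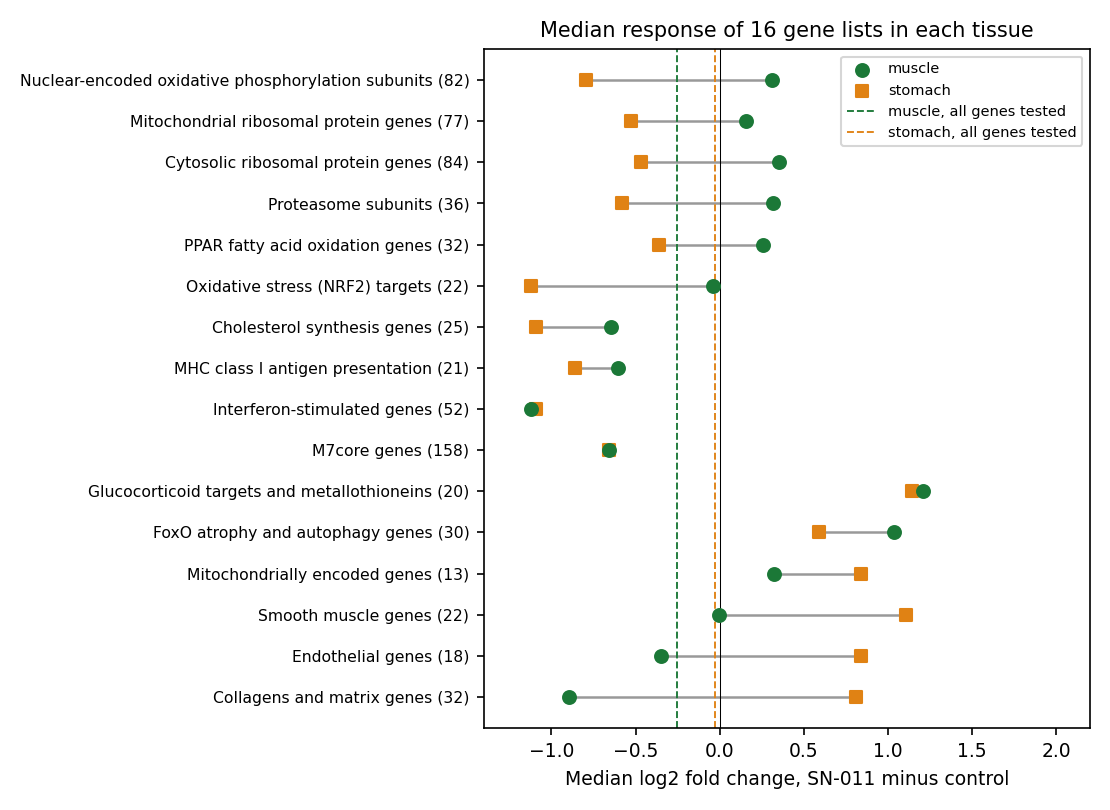
Median log2 fold change after SN-011 in muscle (green circles) and stomach (orange squares) for 16 lists of genes, with the number of genes tested in brackets and dashed lines at the medians over all genes. Nuclear-encoded oxidative phosphorylation, ribosomal and proteasome lists had a positive median in muscle and a negative one in the stomach, and the matrix list the reverse. The endothelial list had a positive median in the stomach and one near that of all genes in muscle. The 2 points of interferon-stimulated genes nearly coincide in this fit of all 12 samples.

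Some members of the oxidative stress and metabolism lists were opposed. Among 22 targets of the oxidative stress factor NRF2, 6 had a positive difference at an unadjusted p under 0.05 (5.8% of all genes) and 1 a negative one (9.43%). The median difference was 0.84 against -0.29 over all genes. In the stomach 10 were lower (10.3% of all genes) and 0 higher at that level, with a median log2 fold change of -1.12. In muscle the list was mixed, with 4 higher, 3 lower and a median of -0.04. Prdx1, a peroxiredoxin that removes hydrogen peroxide, was at 250.8, 254 and 262 CPM in control muscle and 419, 409.7 and 367 CPM after SN-011. In the stomach it fell from 798, 661 and 345 CPM to 172, 302 and 184 CPM (log2 -1.45, adjusted p = 0.0403), and the difference was 2.09 (SE 0.45, adjusted p = 0.0953). Gclm, the regulatory subunit of the enzyme that limits glutathione synthesis, was at 40.4, 45.3 and 37.9 CPM and then 88.3, 56.7 and 65.8 CPM in muscle, against 115, 95.7 and 89.6 CPM and then 29.4, 64.3 and 40.2 CPM in the stomach. Its difference was 1.94 (SE 0.40, adjusted p = 0.0849), and that of Srxn1, sulfiredoxin, 1.75 (adjusted p = 0.122). The core of the antioxidant response element, TGACNNNGC, occurs in the same 250-base window of 5 of 18 genes of this list with a promoter in the table (27.8%), of 6 of 30 proteasome genes (20%) and of 11.5% of all genes. Prdx1 and Gclm each hold it once, 133 and 134 bases before the start, and their windows are shown with the match in capitals, in both cases on the other strand, because these 2 genes had the lowest interaction p of the list.
Prdx1, chr4:116685349-116685598, plus strand: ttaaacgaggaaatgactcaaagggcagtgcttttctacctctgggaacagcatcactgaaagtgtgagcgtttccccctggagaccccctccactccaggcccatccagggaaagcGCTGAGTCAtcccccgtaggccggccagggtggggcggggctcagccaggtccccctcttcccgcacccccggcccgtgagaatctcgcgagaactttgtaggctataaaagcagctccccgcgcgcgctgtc
Gclm, chr3:122245307-122245556, plus strand: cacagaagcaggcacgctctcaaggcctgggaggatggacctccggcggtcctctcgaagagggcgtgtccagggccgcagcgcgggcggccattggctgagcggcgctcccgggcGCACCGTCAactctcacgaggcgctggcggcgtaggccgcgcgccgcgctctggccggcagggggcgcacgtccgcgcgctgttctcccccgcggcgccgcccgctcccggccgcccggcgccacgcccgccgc

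Among 32 genes of fatty acid oxidation, 9 had a positive difference at an unadjusted p under 0.05 (5.8% of all genes) and 2 a negative one (9.43%). The median difference was 0.66 against -0.29 over all genes. In the stomach 9 were lower and 5 higher at that level, with a median log2 fold change of -0.36. In muscle 4 were higher and 0 lower, with a median of 0.26. Hadh, of the mitochondrial oxidation cycle, fell in the stomach from 102 ± 12.8 to 50.4 ± 15.6 CPM (adjusted p = 0.046) and was at 198 ± 5.14 and 203 ± 22.3 CPM in muscle. Plin5, a lipid droplet protein of oxidative tissue, had a difference of 3.00 (adjusted p = 0.153), with stomach levels of 0.0409 to 1.32 CPM that reach the floor. Glycolysis genes had a median difference of -0.04, with 1 of 23 positive and 1 negative at an unadjusted p under 0.05, beside 5.8% and 9.43% of all genes. Slc2a1, the glucose transporter GLUT1, was higher in muscle and lower in the stomach (difference 1.39, adjusted p = 0.12), and Pfkfb3, which makes the activator of phosphofructokinase, the reverse (difference -1.31, adjusted p = 0.16).

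Interferon-stimulated genes were lower after SN-011 in both tissues, by nearly equal medians in the fit of all 12 samples. Of 52 tested, 32 were lower in muscle (8.42% of all genes) and 32 in the stomach (10.3%) at an unadjusted p under 0.05. Of the 52, 0 were higher in either. The median log2 fold change was -1.12 in muscle and -1.09 in the stomach, and the median difference 0.01 against -0.29 over all genes, with 2 genes at an unadjusted interaction p under 0.05, Usp18 and Rsad2. Under the alternatives the median difference lay between -0.31 and 0.30. Without muscle SN-011 replicate 2 it was 0.25, beside -0.11 over all genes, with medians of -0.91 in muscle and -1.10 in the stomach. Ifit3, an RNA-binding antiviral protein, was at 188, 208 and 251 CPM in control muscle and 79.5, 80.01 and 112 CPM after SN-011. In the stomach it fell from 135, 153 and 140.6 CPM to 77.4, 54.0 and 82.9 CPM (log2 -1, adjusted p = 0.0457). Its groups were apart in both tissues and in the same direction, and the difference was -0.26 (SE 0.32, adjusted p = 0.747). Isg15, a ubiquitin-like modifier, Cxcl10, a chemokine for T cells, Zbp1, a sensor of Z-form nucleic acids, and Mlkl, the effector of necroptosis, had differences of -0.47 (SE 0.53), -0.69 (SE 1.23), -0.32 (SE 0.51) and 0.43 (SE 0.47), with adjusted p of 0.705 to 0.84. For Cxcl10, 0 counts in muscle SN-011 replicate 2 entered that value, and without the library it was -0.10. A difference between tissues was not detectable for these 4 genes at the spread of their samples. The core of the interferon-stimulated response element, 2 copies of GAAA separated by 2 bases, occurs in the window of 19 of 39 genes of the list (48.7%) and of 3.46% of all genes. In the stomach the Isg15 groups overlapped, at 127.6, 215.7 and 215.8 CPM in controls and 41.5, 97.6 and 132 CPM after SN-011 (log2 -1.05, adjusted p = 0.15). Isg15 and Ifit3, which had negative fold changes in both tissues, are shown with their matches in capitals, 3 that overlap in Isg15 and 2 on the other strand in Ifit3.
Isg15, chr4:156200819-156201068, minus strand: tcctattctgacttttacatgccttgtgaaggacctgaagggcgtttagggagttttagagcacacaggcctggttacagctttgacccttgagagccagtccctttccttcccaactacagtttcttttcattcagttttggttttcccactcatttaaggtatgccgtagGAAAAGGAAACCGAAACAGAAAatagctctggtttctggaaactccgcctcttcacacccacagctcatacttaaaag
Ifit3, chr19:34583279-34583528, plus strand: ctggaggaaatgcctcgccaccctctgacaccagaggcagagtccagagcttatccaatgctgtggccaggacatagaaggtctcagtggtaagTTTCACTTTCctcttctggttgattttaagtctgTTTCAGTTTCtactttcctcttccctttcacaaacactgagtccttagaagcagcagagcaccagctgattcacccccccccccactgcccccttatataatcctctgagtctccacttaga

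Usp18, the protease that removes ISG15 from proteins and damps interferon receptor signalling, had opposite signs in the 2 tissues. It was at 81.2, 81.0 and 80.2 CPM in control muscle and 135, 107 and 117 CPM after SN-011. The stomach level fell from 99.2, 159 and 118 CPM to 29.5, 55.9 and 63.7 CPM (log2 -1.34, adjusted p = 0.0358). The muscle value was 0.57 (adjusted p = 0.447) and the difference 1.90 (SE 0.39, adjusted p = 0.0849). Rsad2, viperin, was lower in both tissues, more so in the stomach (-1.83, adjusted p = 0.0215) than in muscle (-1.01, adjusted p = 0.157), with a difference of 0.83 (adjusted p = 0.287). Of the 158 M7core genes tested, the STING-dependent list of the study, 18 had a positive and 5 a negative difference at an unadjusted p under 0.05, beside 5.8% and 9.43% of all genes. At any p, 79 differences were positive and 79 negative, with a median of 0.00 against -0.29 over all genes. Its medians were -0.66 in each tissue. Without muscle SN-011 replicate 2 they were -0.47 in muscle and -0.67 in the stomach, with a median difference of 0.20. Tgif1, a transcriptional repressor, rose in muscle from 13.4 ± 1.02 to 51.1 ± 21.5 CPM (log2 1.93, adjusted p = 0.0376) with 0.11 in the stomach, and Nub1, which directs NEDD8 conjugates to degradation, had a difference of 0.99 (adjusted p = 0.147). For antigen presentation, the class I list had a median difference of 0.28, with 4 of 21 genes positive and 0 negative at an unadjusted p under 0.05, beside the same shares and median of all genes. B2m, the light chain of class I molecules, fell in the stomach from 3248 ± 190.5 to 1133 ± 231 CPM (log2 -1.52, adjusted p = 0.0298) and had a log2 fold change of -0.43 in muscle. Psme1, of the proteasome activator, fell in the stomach by 1.24 (adjusted p = 0.0284), and the class II gene H2-Ab1 by 1.41 (adjusted p = 0.0215), with muscle values of -0.22 and -0.33.

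Some lists had positive medians in both tissues. FoxO atrophy and autophagy genes had medians of 1.04 in muscle and 0.59 in the stomach, with 18 and 11 of 30 higher at an unadjusted p under 0.05 and 3 and 2 lower. Of all genes, 3.54% were higher and 8.42% lower in muscle at that p, and 9.23% higher and 10.3% lower in the stomach. Glucocorticoid targets and metallothioneins had medians of 1.21 and 1.14, with 10 of 20 higher and 0 lower in each tissue. Among the latter, Zbtb16, a zinc finger repressor, rose in the stomach from 0.782, 0.326 and 0.705 CPM to 6.33, 5.68 and 6.16 CPM (log2 3.32, adjusted p = 0.0215). Its muscle groups overlapped at 24.8 to 115 CPM, the lowest being SN-011 replicate 2, and the difference was -3.38 (adjusted p = 0.0838) with that library and -2.94 without it. Klf9, a Kruppel-like factor, had a difference of -2.06 (adjusted p = 0.153) and Errfi1, an inhibitor of the EGF receptor, of 1.52 (adjusted p = 0.229). Eif4ebp1, the translation repressor 4E-BP1, and Foxo4 had differences of 1.74 and -1.10 (adjusted p = 0.185 and 0.206).

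Transcripts of gastric gland, pancreatic and B cell lists varied between libraries beside these results. Gastric gland genes summed to 136300, 71210 and 40160 CPM in control stomach and 17740, 102900 and 40180 CPM after SN-011, so their level varied widely within each group. Oxidative phosphorylation genes, at 25860, 16100 and 10980 CPM in those controls and 6739, 13120 and 9190 CPM in those SN-011 samples, followed the same order within each group. In muscle the gastric gland genes summed to 87.7, 1313 and 572 CPM in control muscle and to 77.4, 32.1 and 79.99 CPM in SN-011 muscle. Gastric genes such as Slc26a9, with 0.147, 5.09 and 0.955 CPM in control muscle, 0 in all SN-011 muscle samples and 68.7 to 137 CPM in the stomach, therefore appear among the negative differences (median -2.79 over 24 genes). Pancreatic acinar genes summed to 15830 CPM in stomach SN-011 replicate 2, against 855 to 2659 CPM in the other stomach samples, and to 412 CPM in muscle SN-011 replicate 2, against 5.23 to 17.5 CPM in the other muscle samples. Try4, a trypsinogen, was at 66.0 CPM in that muscle library and at most 0.273 CPM in the other 5. B cell and plasma cell genes summed to 4635, 6997 and 3875 CPM in control stomach and 2154, 1810 and 2951 CPM after SN-011, while in muscle they were at 161 to 215 CPM, with Cd79a, of the B cell receptor, at 1.32 to 4.42 CPM in controls and 0 to 0.273 CPM after SN-011. The part of these levels in the opposed lists was not tested.

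**Figure D4:**
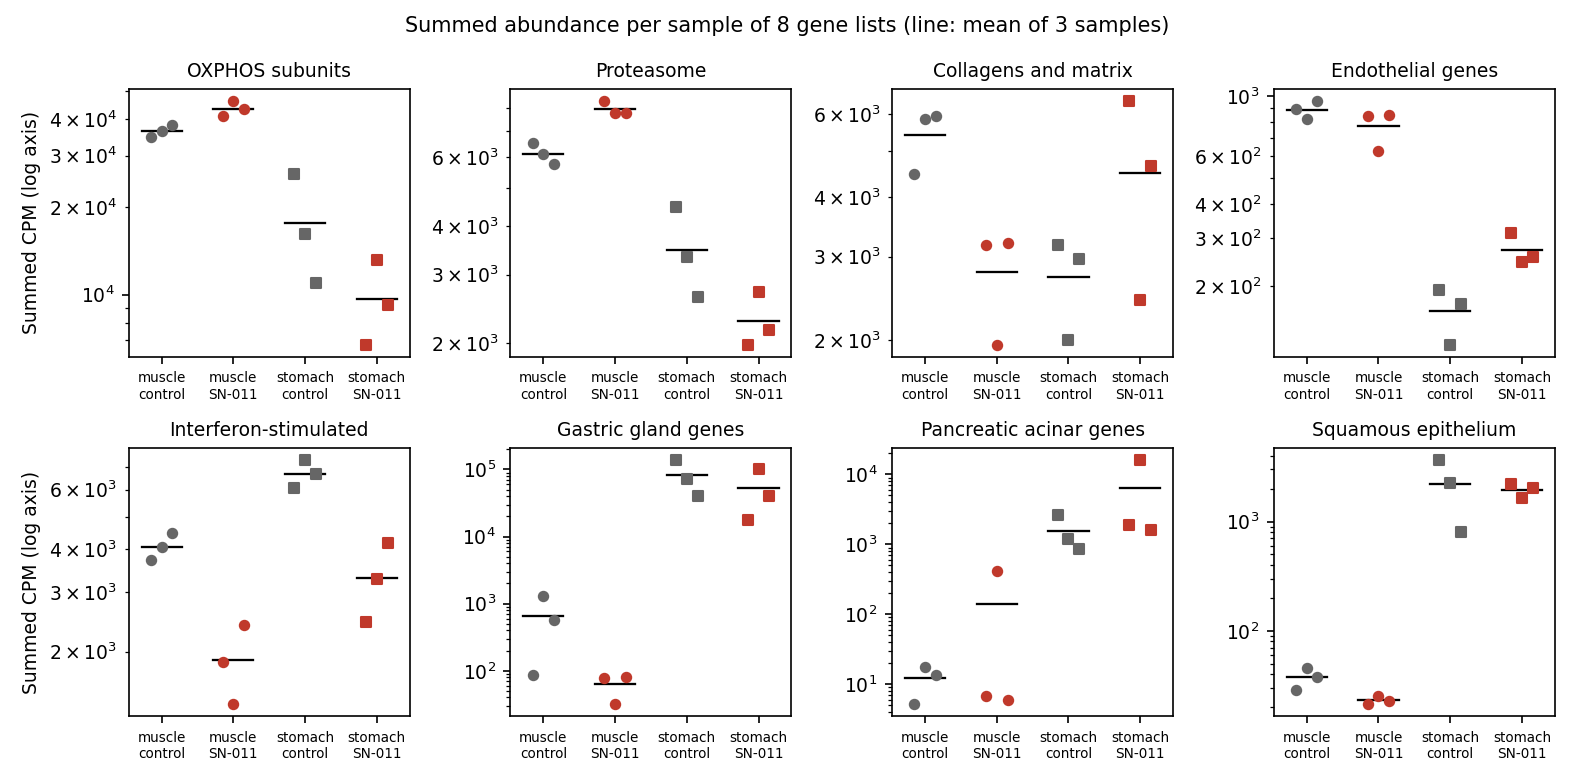
Summed CPM (log axis) of 8 lists of genes in each of the 12 samples, with circles for muscle, squares for stomach, grey for control, red for SN-011 and a line at each mean of 3 samples. Proteasome and oxidative phosphorylation genes were higher in SN-011 muscle, interferon-stimulated genes were lower in SN-011 samples of both tissues, and gastric gland genes ranged from 17740 to 136300 CPM within the stomach.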

How the data were processed

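The authors deposited raw counts of read pairs per gene for each sample, without normalization. The study's methods name Trimmomatic, hisat2 and featureCounts, whereas the submitters' processing notes name HISAT2, HTSeq and the build mm10, with no versions. Of 54532 identifiers, 54495 are in GENCODE M21 (GRCm38), used for symbols, positions and exonic lengths. The 12 muscle and stomach samples were fitted together in edgeR 4.0.16 (R 4.3.3, limma 3.58.1), with 1 coefficient per group, filterByExpr (minimum count 10, minimum total 15), TMM and the two-sided quasi-likelihood F test (prior count 0.125), adjusted by Benjamini-Hochberg over 17945 genes at 0.05. The interaction was the SN-011 effect in muscle minus that in stomach, and the fit was tested on simulated data. Genes are named as the opposed and one-tissue genes above, as the 3 of each list with the lowest interaction p, or because the study names them. The members, the 39 lists and the naming rule were chosen with earlier results of these data known, and lists were described without a set test. Labels do not say whether replicates are separate mice or whether tissues share mice, so p-values measure only the spread between these samples. Promoter windows came from RefSeq (GRCm38.p6). Alternatives were DESeq2 1.42.0 and its size factors, library size alone, 2 other filters, the likelihood ratio test, voom with sample weights, a robust fit, all 24 samples, removal of the top 10 genes, a log2 threshold of 1, a prior count of 2, replicate blocks and each sample left out. Centring by exonic length was added after seeing the data. Tables and figures used Python 3.11.15, pandas 2.3.3 and matplotlib 3.10.9.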

Additional observations from a re-analysis of the deposited data

Results flagged for a closer look

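The response to SN-011 differed between muscle and stomach, by a test of the difference itself, for 8 genes (edgeR's quasi-likelihood test, adjusted p = 0.0395 to 0.0461). With a replicate block, by mouse or by number, 0 genes passed in the same test. The difference in log2 fold change, muscle minus stomach, was 2.91 for Egln3 and 2.52 for Cdkal1, with every SN-011 sample above the controls in muscle and below them in the stomach. It was -3.09 for Mafa, -2.70 for Mast4 and -1.98 for Rbfox2, with the reverse order in both tissues. It was -2.15 for Cuedc1, also with the reverse order in both tissues, and -3.12 for Col7a1, whose muscle groups overlapped. The fitted value of -6.83 for A930016O22Rik contains a stomach fold against controls of 0, 0 and 2 counts, under the floor, so only its fall in muscle was measured.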

How the results depend on the processing

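The interaction was called for 8 genes, 6 of them opposed, beside 20 calls in muscle and 411 in the stomach. In the same order these counts were 4, 3, 24 and 694 with DESeq2's size factors, 51, 29, 7 and 641 with library size alone, 130, 67, 174 and 437 without a filter, 319, 123, 112 and 1385 with at least 10 counts in every sample, 1141, 287, 714 and 2237 with DESeq2's Wald test, 864, 245, 621 and 1678 with the likelihood ratio test, 5620, 1446, 4504 and 7338 with voom and sample weights, 16, 13, 19 and 418 with a robust fit, 1372, 422, 474 and 2738 with all 24 samples, 16, 13, 20 and 415 without the top 10 genes, and 68, 25, 46 and 271 without control replicate 1 of both tissues. Voom gave muscle SN-011 replicate 2 a weight of 0.0456. Centring by exonic length, chosen after seeing the data, gave 33, 21, 67 and 811, and without that library as well 138, 64, 25 and 2801. Leaving out each sample gave 0 to 138, 0 to 51, 0 to 38 and 1 to 2463. The cause of these shifts was not tested. A log2 threshold of 1 and a prior count of 2 kept 8 and 6. Neither could change the calls, as all 8 differences were larger than 1 in size and the prior count does not enter the p-values.

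Same-numbered muscle and stomach samples correlated at -0.0472 to 0.231 in their deviations from the group means, and 8 of 12 samples correlated best with their own number. In both tissues control replicate 1 was the sample with high Xist and 0 counts of Ddx3y. Since labels do not say whether tissues share mice, the main fit took no pairs, and whether the numbers are pairs was not settled. With a replicate block by mouse there were 0 interaction calls in edgeR's quasi-likelihood test (2151 genes at an unadjusted p under 0.05), 0 of them opposed. With the block by number there were 0 and 0 (2468 unadjusted), 0 in muscle and 132 in the stomach.

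For the 86 genes named or tested by name, 1880 of 2394 values kept their direction and their side of the threshold, 91 were no longer called, 422 became called and 1 reversed, that of Zbp1, at 0.11 without stomach SN-011 replicate 3 (-0.63 to 0.11 with each sample left out). Depth limits genes near 3 counts per library, such as Mafa in the stomach.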

Other observations

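Some members of the heat shock, clock and polyamine lists passed an unadjusted p under 0.05 in 1 tissue only. Among 18 heat shock genes, 1 had a positive and 2 a negative difference at an unadjusted p under 0.05, and the median difference was -0.27, beside 5.8% and 9.43% of all genes and their median of -0.29. Hspb8, a small heat shock protein of chaperone-assisted autophagy, rose in the stomach from 51.4, 16.1 and 19.3 CPM to 136, 83.5 and 92.8 CPM (log2 1.85, adjusted p = 0.0398), and was at 479, 589 and 658 CPM in control muscle and 465, 356 and 444 CPM in SN-011 muscle. Its muscle log2 fold change was -0.45 (adjusted p = 0.664), and the difference was -2.30 (adjusted p = 0.121). Hsph1, a large chaperone of the HSP110 family, rose in the stomach by 1.79 (adjusted p = 0.0217), while Hspe1, the mitochondrial co-chaperonin, fell there by 1.05 (adjusted p = 0.0293).

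Of 20 circadian clock genes, 1 had a positive and 4 a negative difference at an unadjusted p under 0.05, with a median of -0.48, beside the same shares and median of all genes. Nfil3, a repressor of clock output genes, was higher in both tissues. It rose in muscle from 42.9, 20.6 and 55.6 CPM to 256, 235 and 255 CPM (log2 2.65, adjusted p = 0.0376), and was at 10.8, 4.88 and 8.77 CPM in control stomach and 23.1, 12.2 and 16.4 CPM in SN-011 stomach. Among 14 polyamine genes the median difference was 0.03. Oaz2, an inhibitor of ornithine decarboxylase, rose in the stomach by 1.099 (adjusted p = 0.046), was lower in every SN-011 muscle sample, and had a difference of -1.59 (adjusted p = 0.106). Odc1, the decarboxylase itself, was at 136, 254 and 119.7 CPM in control muscle and 626, 365 and 502 CPM in SN-011 muscle, with a difference of 1.67 (adjusted p = 0.151). Its processed pseudogene Gm7993 fell in muscle from 39.7, 53.6 and 67.3 CPM to 3.00, 0.3645 and 1.84 CPM (log2 -4.94, adjusted p = 0.0376). In the stomach it fell from 10.8, 13.9 and 42.1 CPM to 0, 1 and 0 counts, under the floor, so its difference of 5.03 is no measure of size. Whether reads are shared with Odc1 was not tested. Cholesterol synthesis genes, the list that holds Fdft1, had a median difference of 0.21, and medians of -0.65 in muscle and -1.09 in the stomach. Of 25, 2 were positive and 0 negative at an unadjusted p under 0.05, beside 5.8% and 9.43% of all genes. Without muscle SN-011 replicate 2 the median difference was 0.66 and the muscle median -0.30. Then 5 were positive and 0 negative at that p, beside 8.05% and 11.2% of all genes.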
